A study of Mus musculus with 10 samples.

Results

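The Slit ligands and their Robo receptors were followed in the hippocampus of mice with and without ablation of the meningeal lymphatic vessels. The members are the 6 genes Slit1, Slit2, Slit3, Robo1, Robo2 and Robo3, taken by symbol from a table of 27343 genes, and all 6 passed the filter on low counts. The family was chosen by the Visudyne against vehicle difference of Slit2, which was known to be higher in Visudyne from earlier results of these data, and the other 5 genes were taken by name. The difference of each member between the groups is therefore a description: no p-value is given for it, and where a count of members past a threshold stands beside the share of all genes, nothing is read from it. All animals were wild-type male C57BL/6J mice, 2 months old. Visudyne mice (5 libraries) received verteporfin, a light-activated drug, into the cisterna magna, and vehicle mice (5 libraries) received the carrier alone. Red light of 689 nm was shone through the intact skull, and the procedure was done again 2 weeks later. Mice of both groups then swam the Morris water maze, a test of spatial learning, and RNA of the whole hippocampus was taken 3 days after it. The labels give no measure of how complete the ablation was. They number the libraries 1 to 5 (Visudyne) and 6 to 10 (vehicle) and do not state outright that each is a different mouse, so the spread between libraries may be partly technical.

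Slit proteins are large secreted glycoproteins that bind the immunoglobulin domains of Robo receptors, with heparan sulfate as a co-factor. Robo activation collapses or turns growth cones by acting on the actin cytoskeleton, and the pair is known for steering axons across the midline, for laying out forebrain tracts and for guiding migrating neurons. Robo3 is the divergent receptor of commissural neurons. The Slit2 and Slit3 genes carry copies of the microRNA miR-218 in their introns, and Robo transcripts are among its known targets.

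The 6 genes fell into 2 classes of base composition, beside which the group differences are set below. GC content, the share of G and C over the annotated transcripts of a gene, was 58.95% for Slit1, 55.04% for Slit3 and 57.79% for Robo3. It was 46.92% for Slit2, 47.62% for Robo1 and 42.71% for Robo2. The contrast was sharp within the Slit coding sequences, where the third position of the codon was G or C in 73.0% of codons of Slit1, 72.7% of Slit3 and 50.7% of Slit2. The next lines show, from the GENCODE M21 transcripts, the ungapped stretch of 120 coding bases that is most alike among the 3 Slit genes, with every G and C in capitals. Of the 120 bases 83 are identical in all 3 genes, and 69, 63 and 70 are G or C in Slit1, Slit2 and Slit3.
Slit1: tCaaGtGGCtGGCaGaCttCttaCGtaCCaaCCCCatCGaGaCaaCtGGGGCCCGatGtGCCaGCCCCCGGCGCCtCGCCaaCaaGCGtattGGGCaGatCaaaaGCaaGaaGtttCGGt
Slit2: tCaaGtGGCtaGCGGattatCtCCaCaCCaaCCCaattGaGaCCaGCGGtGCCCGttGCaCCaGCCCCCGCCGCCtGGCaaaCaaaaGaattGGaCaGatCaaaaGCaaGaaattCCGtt
Slit3: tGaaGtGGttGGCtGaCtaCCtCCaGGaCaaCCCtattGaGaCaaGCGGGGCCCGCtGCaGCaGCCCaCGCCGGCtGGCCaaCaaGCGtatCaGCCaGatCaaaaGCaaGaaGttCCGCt
The most alike stretch of the 3 Robo genes, in the part of the coding sequence near its start, shared 75 of 120 bases. There Robo3 held 79 G or C bases, Robo1 71 and Robo2 68.
Robo1: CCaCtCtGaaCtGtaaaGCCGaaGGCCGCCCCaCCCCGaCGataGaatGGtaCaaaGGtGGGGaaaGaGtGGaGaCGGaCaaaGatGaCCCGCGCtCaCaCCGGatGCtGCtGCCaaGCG
Robo2: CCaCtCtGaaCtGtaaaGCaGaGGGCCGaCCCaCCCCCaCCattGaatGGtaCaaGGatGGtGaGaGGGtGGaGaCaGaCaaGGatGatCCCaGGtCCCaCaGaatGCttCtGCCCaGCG
Robo3: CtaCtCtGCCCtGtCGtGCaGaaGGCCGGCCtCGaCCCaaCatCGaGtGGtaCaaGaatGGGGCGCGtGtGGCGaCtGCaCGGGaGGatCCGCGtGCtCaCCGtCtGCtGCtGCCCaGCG
Over the whole coding sequence the Slit genes were 64.8% to 65.8% identical to each other. Robo1 and Robo2 were 60.9% identical, and Robo3 was 54.1% identical to Robo1 and 55.9% to Robo2. The longest run of identical bases shared by any pair was 22 bases, between Slit1 and Slit2. Read length is not given in the sources used here.

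On GRCm38 the Slit genes lie apart. Slit1 (ENSMUSG00000025020) spans chromosome 19, 41600257 to 41743665, on the minus strand. Slit2 (ENSMUSG00000031558) spans chromosome 5, 47983138 to 48307733, and Slit3 (ENSMUSG00000056427) chromosome 11, 35121224 to 35708507, both on the plus strand. Robo1 (ENSMUSG00000022883, chromosome 16, 72308306 to 73046095, plus strand) and Robo2 (ENSMUSG00000052516, chromosome 16, 73891839 to 74411825, minus strand) are neighbours with 845.7 kb between them. Robo3 (ENSMUSG00000032128) spans chromosome 9, 37415669 to 37433246, on the minus strand, and its 3′ end is 553 bases from that of Robo4, the endothelial receptor of the family. No other annotated gene shares exon bases with any of the 6. Small, intronic or antisense genes lie within the introns of Slit2, Slit3, Robo1 and Robo2, and those listed in the table had 24 counts or fewer in every library.

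Total counts were 34548474 to 36956138 in the Visudyne libraries and 24752362 to 41073906 in the vehicle libraries. Hippocampal neuron markers were present in every library, with the 5 CA1 markers summing to 98 to 142.8 CPM, the 5 CA3 markers to 112.5 to 157.5 CPM and the 5 dentate granule cell markers to 327 to 573.9 CPM. CPM is the usual count scaled to a fixed library size, here with sizes adjusted by the trimmed mean of M-values (TMM). The Visudyne and vehicle libraries differed in how counts depended on GC content. The slope of log2 CPM against GC content, as the deviation from the mean library per 10 percentage points of GC, ran from -0.54 to 0.008 in Visudyne and from -0.02 to 0.40 in vehicle. Mitochondrial transcripts took 42.6% to 49.3% of the counts in Visudyne and 40.4% to 44.1% in vehicle. The part of library preparation and RNA quality in these values was not tested.

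The ligand Slit2 was higher in every Visudyne library than in any vehicle library. It stood at 53.4, 52.9, 57.7, 58.4 and 56.2 CPM in Visudyne 1 to 5 and at 39.1, 38.4, 28.2, 33.4 and 39.6 CPM in vehicle 6 to 10. The groups did not overlap, and the 5 Visudyne libraries lay close together (coefficient of variation 4.44%, against 13.8% in vehicle), with vehicle 8 the lowest of all. The means were 55.7 ± 2.47 and 35.7 ± 4.93 CPM (SD, n = 5 each). The log2 fold change was 0.64 (SE 0.089, 95% interval 0.47 to 0.82) in the edgeR fit over all genes, or 1.56-fold.

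Slit1, a ligand known from the developing and adult brain, lay on the opposite side. It was at 11, 16.8, 13.1, 16.9 and 17.6 CPM in Visudyne 1 to 5 and at 25.3, 19, 18.3, 33.2 and 19.8 CPM in vehicle 6 to 10. The groups did not overlap here either, but Visudyne 5 and vehicle 8 lay close together, and vehicle 9 was the highest library. The means were 15.1 ± 2.87 and 23.1 ± 6.27 CPM, a log2 fold change of -0.62 (SE 0.18, 95% interval -0.96 to -0.27) or 0.652 of the vehicle level.

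Slit3, the ligand also known from diaphragm and vessels, overlapped between the groups. It was at 8.16, 11, 9.99, 11.6 and 11.7 CPM in Visudyne 1 to 5 and at 11.8, 9.58, 10.4, 15.3 and 10.7 CPM in vehicle 6 to 10. Vehicle 9 was again the highest library and Visudyne 1 the lowest, as for Slit1. The log2 fold change was -0.14 (SE 0.14, 95% interval -0.40 to 0.13).

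The main neuronal receptors Robo1 and Robo2 differed little. Robo1 was at 63.8, 61, 64.6, 59 and 51.5 CPM in Visudyne 1 to 5 and at 57.7, 51.5, 50.2, 53.1 and 56.3 CPM in vehicle 6 to 10. Visudyne 5 lay inside the vehicle range and the other 4 Visudyne libraries above it, with a log2 fold change of 0.16 (SE 0.07, 95% interval 0.021 to 0.29). Robo2 was at 129.9, 119, 138.5, 124.9 and 99.5 CPM in Visudyne 1 to 5 and at 125.7, 121.6, 111.7, 111.9 and 120.9 CPM in vehicle 6 to 10. All vehicle libraries lay within the Visudyne range, and the log2 fold change was 0.048 (SE 0.082, 95% interval -0.11 to 0.21).

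Robo3 was scarce, with 17 to 89 counts in a library. It was at 0.534, 1.34, 1.09, 1.48 and 0.887 CPM in Visudyne 1 to 5 and at 2.05, 0.912, 1.72, 2.19 and 1.65 CPM in vehicle 6 to 10. Only vehicle 7 among the vehicle libraries lay within the Visudyne range. The log2 fold change was -0.68 (SE 0.28, 95% interval -1.24 to -0.13). The lowest count, 17 in Visudyne 1, has an exact Poisson 95% interval of 9.9 to 27.2, which covers counting error only.

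**Figure D1:**
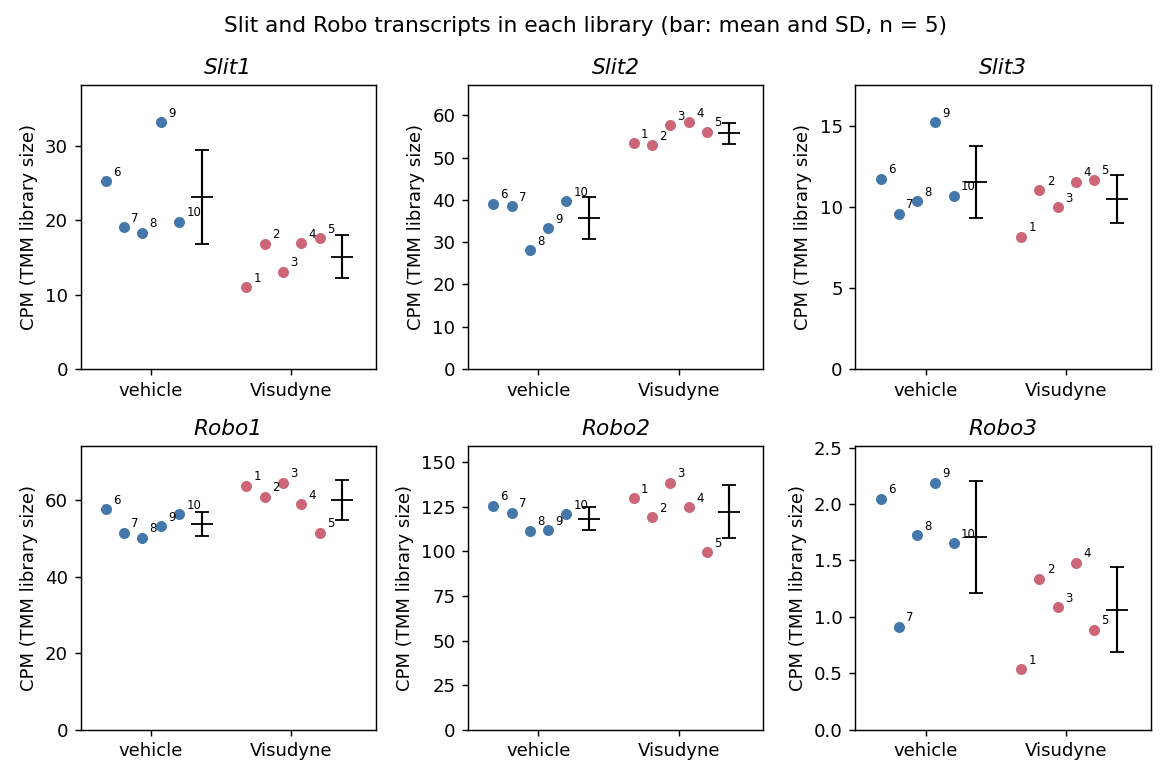
CPM of the 3 Slit genes (top) and 3 Robo genes (bottom) by group, with 1 numbered point per library (5 per group) and a black bar for mean and SD. All 5 Visudyne points of Slit2 (52.9 CPM or more) lie above all vehicle points (39.6 CPM or less), those of Slit1 lie below all vehicle points, and the groups overlap for the other 4 genes.

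Of the 6 genes, Slit2 passed the threshold of the fit upwards and Slit1 downwards (Benjamini-Hochberg adjusted p under 0.05 over 15938 genes), and the other 4 did not. Over all tested genes 20.5% passed, 8.98% higher and 11.5% lower, and groups without overlap were found for 5.25% with Visudyne above and 7.22% with Visudyne below. The median log2 fold change was -0.044 over the 6 genes and 0.01 over all tested genes. Slit2 was chosen for this contrast, so these counts are not evidence about the family. In bulk tissue, fewer cells that express a gene and less RNA per cell cannot be told apart.

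The counts of the 3 ligands were split differently. Slit2 took 65.5% to 73.6% of all Slit CPM in the Visudyne libraries and 40.8% to 57.3% in the vehicle libraries. Per kilobase of all annotated exons, which are long for Slit2, its share was 30.9% to 39.6% in Visudyne and 13.9% to 24% in vehicle. There were 3.15 to 4.85 Slit2 counts for each Slit1 count in Visudyne and 1.01 to 2.02 in vehicle. These shares and ratios contain the Slit2 values by which the family was chosen, so their separation between the groups is no further evidence. The ratio also contains Slit1, whose log2 fold change was -0.617 as fitted and -0.133 after removal of each library's trend with GC content. No share or ratio with that trend removed is given here. The summed Slit CPM overlapped, at 72.6 to 86.9 in Visudyne and 56.8 to 81.8 in vehicle, as did the summed Robo CPM, at 151.9 to 204.2 and 163.6 to 185.4.

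Levels of different genes were compared per kilobase of the annotated transcript with the longest coding sequence. In vehicle the receptor Robo2 was highest at 14.7 ± 0.778 CPM per kb, followed by Robo1 at 7.11 ± 0.416. The ligands Slit2 and Slit1 came next, both at 4.59 CPM per kb (SD 0.632 and 1.24), and did not differ beyond their spread. Slit3 followed at 2.21 ± 0.426 and Robo3 came last at 0.355 ± 0.103. In Visudyne Slit2 was at 7.15 ± 0.317 CPM per kb, overlapping Robo1 at 7.93 ± 0.691, while Slit1 was at 2.99 ± 0.57. Per kilobase of all annotated exons, a length that for Slit2 is 25.43 kb against 7.79 kb for its coding transcript, Slit2 was below Slit1 and Slit3 in vehicle, at 1.4 against 3.9 and 1.9 CPM per kb. The place of Slit2 in the order thus rests on the length used, while Robo2 was highest and Robo3 lowest on both scales in both groups.

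The group difference of all genes followed GC content, and the members are set beside it here. When the tested genes were sorted by GC content into 10 equal bins, the median log2 fold change went from 0.31 in the bin lowest in GC to -0.48 in the highest. Slit1 and Robo3, at -0.62 and -0.68, fell in the highest bin, with its median of -0.48. Robo1, at 0.16, fell in a bin with a median of 0.037, and Robo2, at 0.048, in one with a median of 0.22. Slit3, at -0.14, was in a bin with a median of -0.36. Slit2, at 0.64, was in a bin with a median of 0.09, and a gene chosen for its difference, as Slit2 was, lies away from its bin by that choice.

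**Figure D2:**
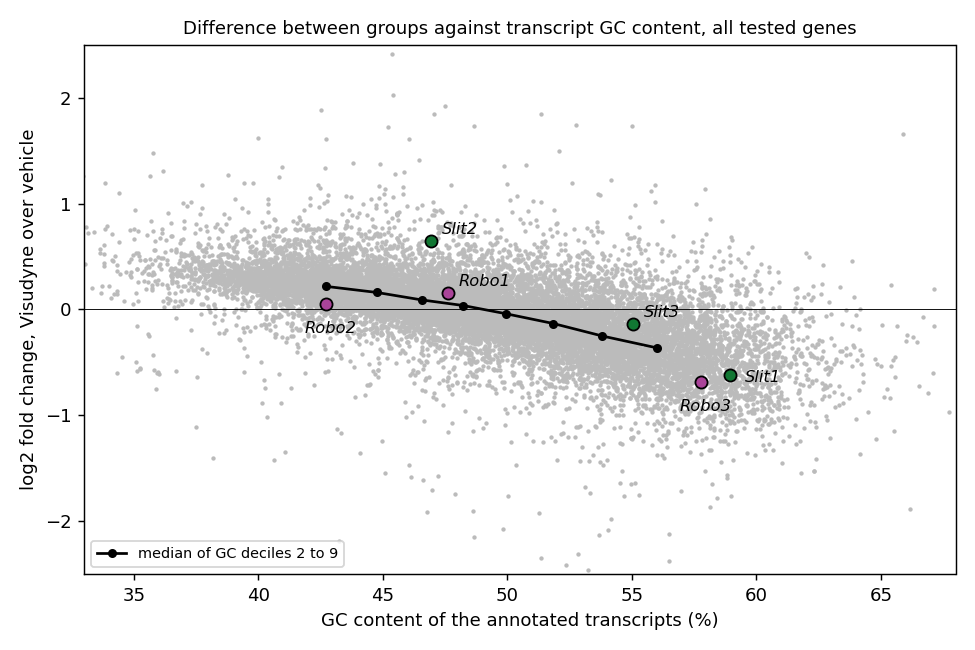
Log2 fold change (Visudyne over vehicle) against GC content of the annotated transcripts in percent for the 15829 tested genes with a GC value, of which 50 lie outside the axes. Grey points are genes, the black line joins the medians of bins 2 to 9, and the 3 Slit (green) and 3 Robo (purple) genes are named. The line runs downwards from left to right, Slit1 and Robo3 lie low at the right, and Slit2, at 46.92% GC, lies above the line.

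Removal of each library's trend with GC content changed the group differences of Slit1 and Slit3 more than that of Slit2. Slit2 was then at 50.7, 52.9, 56.5, 57.2 and 54.7 CPM in Visudyne 1 to 5 and at 41.2, 38.9, 29.8, 34.4 and 38.8 CPM in vehicle 6 to 10. The groups still did not overlap, which held for 2.35% of all tested genes with Visudyne above. The log2 fold change was 0.57 (SE 0.081). In this setting 3.14% of the tested genes passed the threshold, 1.45% of the tested genes did so with Visudyne higher, and 4.5% had groups without overlap with Visudyne below. Slit2 was the 1 member past the threshold, which is again no evidence about a gene chosen on these libraries. Slit1 was at 16 to 18.7 CPM in Visudyne and 16.7 to 22 CPM in vehicle, so the groups overlapped and the log2 fold change was -0.13 (SE 0.08). Slit3 turned its sign and stood at 11.1 to 12.4 CPM in Visudyne and 8.95 to 12 CPM in vehicle, with a log2 fold change of 0.18 (SE 0.079). Robo1 was then at 0.11 (SE 0.07), Robo2 at -0.18 (SE 0.074) and Robo3 at -0.26 (SE 0.24).

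**Figure D3:**
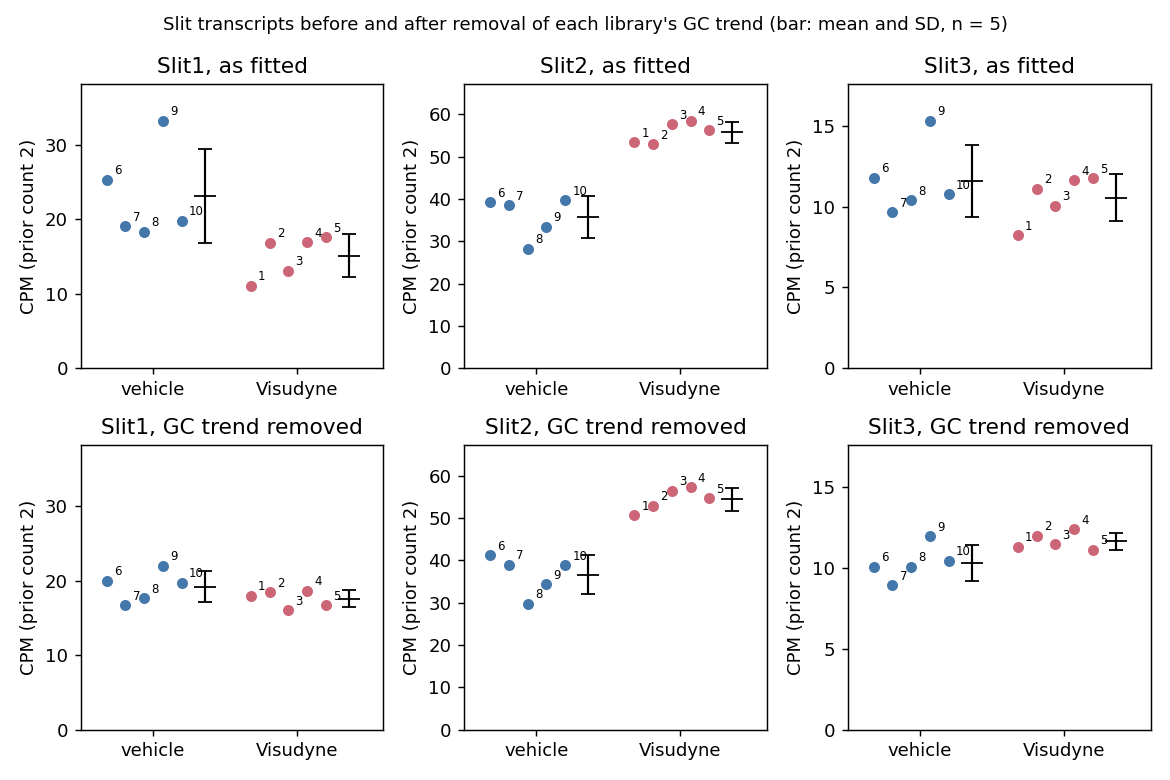
CPM (prior count 2) of Slit1, Slit2 and Slit3 by group, as fitted (top) and after removal of each library's trend with GC content (bottom), with 1 numbered point per library (5 per group) and a black bar for mean and SD. The Slit1 groups come to overlap in the lower row (16 to 18.7 against 16.7 to 22 CPM) and the Slit2 groups stay apart.

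When each library's GC slope entered the fit as a covariate instead, Slit2 was at 0.63 (SE 0.14). In that fit 0 of all tested genes passed the threshold by edgeR, and 1032 had p under 0.05 before adjustment. Slit1 was then at 0.027 (SE 0.15), Slit3 at 0.31 (SE 0.13), Robo1 at 0.042 (SE 0.097), Robo2 at -0.11 (SE 0.11) and Robo3 at -0.027 (SE 0.40). Over all 10 planned settings other than leaving out a library, Slit2 ranged from 0.44, with total counts in place of TMM, to 0.66. Robo1 turned negative with total counts (-0.056), and Robo2 did so with total counts (-0.17) and in both GC settings. Total counts also moved the median over all tested genes to -0.19. When 1 library at a time was left out, Slit2 lay between 0.56 and 0.67. Slit1 lay between -0.70 and -0.46, Slit3 between -0.20 and -0.022, Robo1 between 0.12 and 0.20, and Robo3 between -0.84 and -0.52. Robo2 was at 0 without Visudyne 3 and at most at 0.11. Slit1 passed the threshold in 4 of these 10 fits and Slit2 in all 10. The number called among all tested genes ranged from 10 to 5047 in them. These fits share most of their libraries with the one that led to the choice of Slit2.

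**Figure D4:**
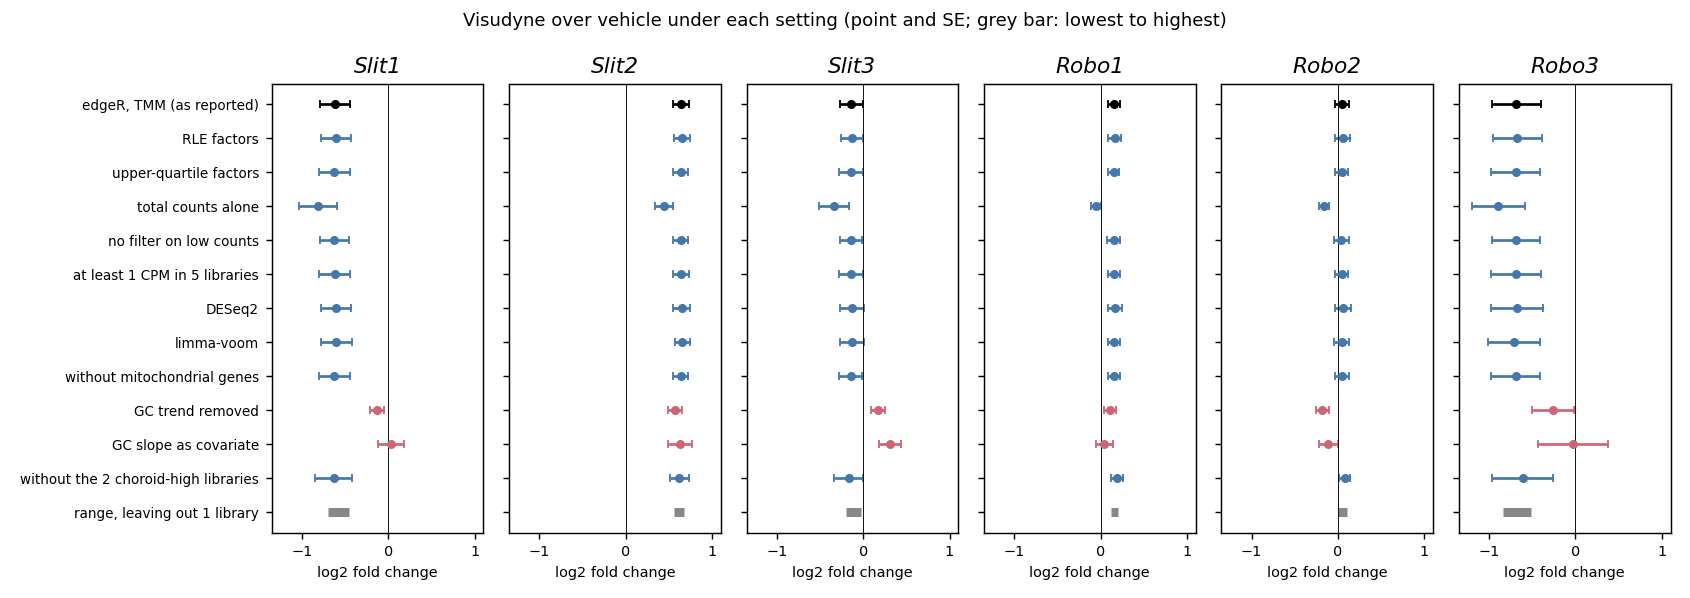
Log2 fold change of each gene with its SE under the reported fit (black), 8 other planned settings and the fit without 2 libraries (blue), and the 2 GC settings (red), with the range over the 10 fits without 1 library as a grey bar. The points of Slit2 stay between 0.44 and 0.66 and its grey bar runs from 0.56 to 0.67. Slit1 moves from -0.62 to -0.13 and 0.027 in the GC settings.

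Markers of other cells were measured beside Slit2. The 5 choroid plexus markers summed to 413.1 CPM in Visudyne 3 and 297.9 CPM in Visudyne 5, against 22.8 to 29.5 CPM in the other Visudyne libraries and 22.2 to 33.5 CPM in vehicle, and 1 of the 5 was called higher. Without those 2 libraries Slit2 had a log2 fold change of 0.62 (SE 0.11), and Slit1 was at -0.63 (SE 0.21). The 5 meningeal fibroblast markers summed to 53.1 to 84.9 CPM in Visudyne and 35.9 to 57.6 CPM in vehicle, with 1 called higher and 1 lower. The 5 astrocyte markers (887 to 1048 against 836.1 to 956.4 CPM) had 0 members called by edgeR and 2 at an unadjusted p under 0.05. The Cajal-Retzius list, cells known for Reln, had 3 of 5 members tested, 0 called by edgeR and 1 at an unadjusted p under 0.05, with sums of 97 to 155.1 against 92.7 to 110.6 CPM and Lhx1 at 0 in at least 1 library. Of 4 tested oligodendrocyte markers 3 were called lower (1826 to 2110 against 1867 to 2473 CPM), with Mag at 0 in at least 1 library. The 5 mural cell markers summed to 102 to 116.4 CPM in Visudyne and 80 to 102.2 CPM in vehicle, with 1 called higher, 2 lower and Kcnj8 at 0 in at least 1 library. The 5 microglia markers summed to 186.1 to 220 against 161.2 to 189.5 CPM, with 1 called higher and 1 lower. The 5 thalamus markers, a check on tissue next to the hippocampus, summed to 85.7 to 118.5 against 73.1 to 97.3 CPM, with 1 called higher. The 5 inhibitory neuron markers summed to 403.5 to 488 against 383.9 to 428.3 CPM, with 1 called higher and 1 lower. Endothelial markers summed to 51 to 59.1 against 49.2 to 58.1 CPM, with 0 of 5 called by edgeR and 1 at an unadjusted p under 0.05. Of the hippocampal neuron lists above, 1 dentate granule cell marker was called higher, and 1 CA1 and 1 CA3 marker lower. The marker calls are from the fit without GC removal, in which 8.98% of all tested genes were called higher and 11.5% lower. The part of these cells in the Slit2 difference was not tested.

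Within the groups, Slit1 moved with Slit3 and Robo1 with Robo2. Each library's log2 CPM was centred on its group mean, which removes the difference between Visudyne and vehicle, and 21 relations were tested over the 10 libraries with an exact two-sided permutation test within groups (14400 permutations). Slit1 and Slit3 rose and fell together, with r = 0.968 (exact permutation p = 0.00076, adjusted 0.016) and rho = 0.988 (exact permutation p = 0.00035), and r = 0.928 without Visudyne 1 and vehicle 9, the libraries farthest out. Robo1 and Robo2, the neighbours on chromosome 16, had r = 0.887 (exact permutation p = 0.0053, adjusted 0.028) and rho = 0.794 (exact permutation p = 0.015), and r = 0.679 without Visudyne 3 and 5. Robo3 had r = 0.769 to Slit3 (exact permutation p = 0.015, adjusted 0.064; rho 0.709) and 0.681 to Slit1 (exact permutation p = 0.043, adjusted 0.15; rho 0.673), which missed the adjusted threshold of 0.05. Slit2 had r = 0.084 to Slit1 (exact permutation p = 0.82, adjusted 0.96), -0.011 to Slit3 (0.97, adjusted 0.97), 0.334 to Robo1 (0.27, adjusted 0.43) and 0.356 to Robo2 (0.13, adjusted 0.34). Its rho with these 4 genes was -0.079, -0.164, 0.333 and 0.467.

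Slit1 and Slit3 also moved with the GC slope of their library. The r with that slope was 0.867 for Slit1 (exact permutation p = 0.0018, adjusted 0.019; rho 0.903, p = 0.0013) and 0.846 for Slit3 (exact permutation p = 0.004, adjusted 0.028; rho 0.891, p = 0.0021). It was 0.93 and 0.887 without Visudyne 1 and vehicle 10. For Slit2 it was -0.036 (exact permutation p = 0.92, adjusted 0.97; rho -0.127). With the GC trend removed, Slit1 and Slit3 had r = 0.857 (exact permutation p = 0.0069, adjusted 0.14; rho 0.77) and Robo1 and Robo2 r = 0.813 (exact permutation p = 0.02, adjusted 0.21; rho 0.576), so neither pair passed the adjusted threshold of 0.05 there. All values of a library share its RNA, depth and base composition trend.

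The genes whose within-group pattern was most like that of each member were taken from 11718 genes, as a description over the 10 libraries. The highest r of so many genes over 10 libraries is large by selection. The r to be expected from unrelated genes was not computed, so no link between genes is read from these values. These were named genes whose mean reached 1 CPM, without predicted models (Gm or Rik), pseudogenes and the 6 members themselves. For Slit2 they were Txnrd3 (r = 0.905), Slc5a6 (0.904) and Ccdc115 (0.886), whose log2 fold changes between the groups were 0.002, 0.071 and -0.041. With the GC trend removed these 3 had r = 0.932, 0.836 and 0.88. For Slit1 they were Mical2 (0.983), Rabggta (0.979) and Ipo13 (0.978), at 0.755, 0.861 and 0.666 with the GC trend removed. For Slit3 they were Wiz (0.978), Dad1 (0.977) and Zfyve26 (0.974), at 0.75, 0.676 and 0.663 with the GC trend removed. Robo1 was most like Prkce (0.923) and Prickle2 (0.918), at 0.781 and 0.904 with the GC trend removed. Robo2 was most like Lhx2 (0.963), Trps1 (0.951) and Nes (0.94), at 0.333, 0.857 and 0.609 with the GC trend removed. Robo3 was most like Cenpv (0.967), Gtf2h3 (0.953) and Exoc4 (0.951), at 0.499, 0.845 and 0.605 with the GC trend removed.

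The introns of Slit2 and Slit3 each encode a copy of miR-218. Its hairpins lie at chr5:48223942-48224051 in Slit2 and chr11:35616816-35616925 in Slit3 (GRCm38.p6, plus strand), and the row of the Slit2 hairpin, Mir218-1, held 0 to 2 counts in a library. The Slit3 hairpin, Mir218-2, is not among the 27343 genes and so has no counts here. The mature strand, from RefSeq, is the same from both genes and is shown with its seed, bases 2 to 8, in capitals.
mmu-miR-218-5p: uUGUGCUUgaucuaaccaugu
The complement of the seed, AAGCACA, was searched on the transcript strand in the 3′ untranslated region of each member's longest coding transcript. It occurred in Slit2, Robo1, Robo2 and Robo3 and not in the annotated regions of Slit1 and Slit3, which are 192 and 365 bases long. The matches are shown with the 7 bases in capitals.
Slit2 at base 302: actagcagAAGCACAtctacaag
Robo1 at base 986: ggttttaaAAGCACAatcactaa
Robo2 at base 461: ttggtgatAAGCACAaatctcta
Robo2 at base 2787: gcagacccAAGCACAgcttcttt
Robo3 at base 137: actcactgAAGCACActgtctac
Among 3′ regions within 10% of the same length, 12% held the 7 bases for the length of Slit2, 18.2% for Robo1, 35.6% for Robo2 and 3.6% for Robo3, and 12.5% of all 20535 did. A match is a run of letters and not a shown target site.

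The other genes of the pathway moved in both directions. Of 49 listed genes 47 were tested, 5 rose and 7 fell, and 35 were not called, so 25.5% passed against 20.5% of all tested genes. Their median log2 fold change was 0.001, against 0.01 over all genes. The 5 that rose had a GC content of 39.6% to 49.5% and the 7 that fell one of 50.3% to 58.3%. With the GC trend removed 2 of the 12 were called, Srgap2 and Cap1, as were 3.14% of all tested genes. In the fit with the GC slope 0 genes of the list passed by edgeR, with 4 at an unadjusted p under 0.05. Of all 15938 tested genes 0 passed there, and 1032 had such a p. With total counts in place of TMM 2 rose and 16 fell, against 196 and 3902 of all tested genes. The count was 5 without Visudyne 1 or Visudyne 4, where 1119 and 1127 of all tested genes were called. It was 0 without Visudyne 3 or vehicle 6 (27 and 10 of all genes) and 6 without vehicle 7 (1567). It was 1 without vehicle 9 (309) and 18 without Visudyne 5 (5047).

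Among the intracellular effectors of Robo 3 of 24 rose and 3 fell, or 25% called against 20.5% of all tested genes. Srgap2, a Slit-Robo GTPase-activating protein that binds the receptor tail, was at 39.1 to 42.3 CPM in Visudyne and 33.8 to 36 CPM in vehicle, without overlap. Its log2 fold change was 0.21 (SE 0.048, edgeR adjusted p = 0.025). With the GC trend removed Srgap2 was at 0.24 (edgeR adjusted p = 0.035), and with total counts at 0.006 and not called. Its relatives Srgap1, at -0.017 (SE 0.10), and Srgap3, at 0.09 (SE 0.075), were not called. Cap1, a cyclase-associated protein that acts on actin, fell to 0.793 of its vehicle level or -0.33 in log2 (SE 0.068, edgeR adjusted p = 0.023). Cap1 was at -0.28 with the GC trend removed (edgeR adjusted p = 0.042) and at -0.16, not called, with the GC slope in the fit. The kinase gene Pak3 rose 1.34-fold and Sos1, an exchange factor for Ras and Rac, 1.26-fold, and with the GC trend removed they were at 0.12 and 0.10 and not called. Rac1, Cdc42 and Rhoa, the GTPases at the end of the path, were at 0.027, 0.15 and 0.045 and not called.

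Of 9 tested genes of co-receptors and heparan sulfate synthesis 1 rose and 3 fell, or 44.4% called against 20.5% of all tested genes. A list of 9 genes chosen with earlier results known shows nothing particular by that share. Gpc1, the glypican that binds Slit, was at 4.8 to 8.11 CPM in Visudyne and 7.81 to 15 CPM in vehicle, with 2 Visudyne libraries inside the vehicle range. Its log2 fold change was -0.72 (SE 0.21, edgeR adjusted p = 0.039). Hs6st1, a heparan sulfate sulfotransferase, fell to 0.712 of its vehicle level and Ext2, a polymerase of the chain, to 0.756. The syndecan Sdc2 rose 1.24-fold. None of the 4 was called with the GC trend removed, where they were at -0.25, -0.18, -0.11 and 0.052 in that order, and with the GC slope in the fit Gpc1 and Hs6st1 were at 0.047 and 0.023.

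Of 8 tested ligands, receptors and partners 1 fell and 0 rose, or 12.5% called against 20.5% of all tested genes. An unadjusted p under 0.05 in either direction by edgeR was found for 3 of the 8, and for 6349 of all 15938 tested genes. The gene that fell was Nell2, a secreted ligand of Robo3, at 207.1 to 257.4 CPM in Visudyne and 264.7 to 321.6 CPM in vehicle. Its log2 fold change was -0.25 (SE 0.078, edgeR adjusted p = 0.043), and with the GC trend removed it was at -0.099 and not called. Dcc, the netrin receptor that Robo can silence, was at 15.1 to 21.1 and 15.2 to 18.7 CPM (0.059, SE 0.092). Robo4 was listed at 0 in 3 libraries and at 0.585 CPM or less in the rest. Of the 6 genes of receptor trafficking and cleavage 1 was called, or 16.7% against 20.5% of all tested genes. It was Adam10, the protease that sheds Robo ectodomains, which rose 1.35-fold (0.43 in log2, SE 0.095, edgeR adjusted p = 0.025). Adam10 was at 0.24 and not called with the GC trend removed.

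**Figure D5:**
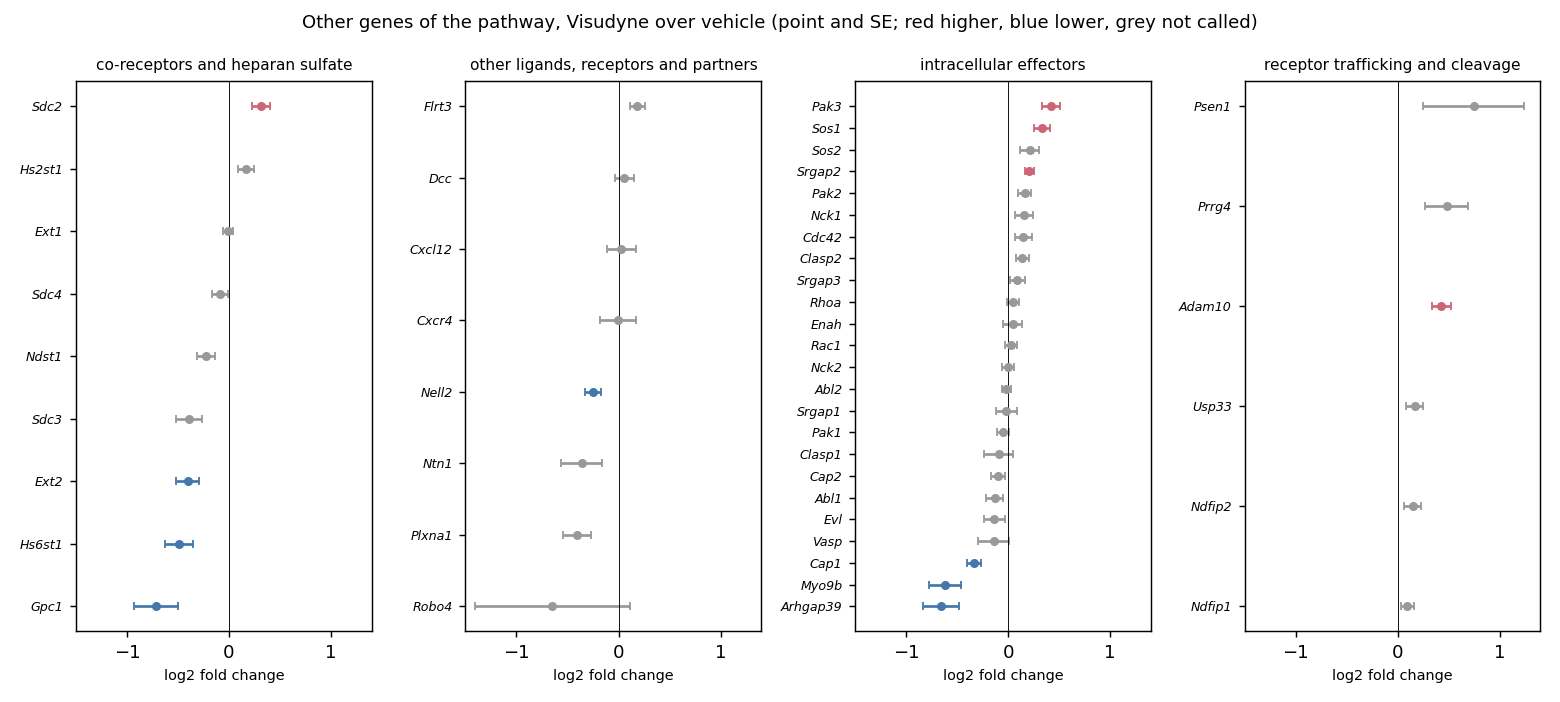
Log2 fold change (Visudyne over vehicle) with its SE for the 47 tested genes of the pathway list in its 4 groups. Red genes were called higher (5), blue genes lower (7) and grey genes were not called (35), and all 4 groups hold genes on both sides of 0 or, for receptor trafficking and cleavage, only above it.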

How the data were processed

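Total RNA of the hippocampus was sequenced from 10 stranded libraries, per the labels' protocols. FastQC and Salmon were run on build mm10, per the submitters' processing notes, and the values the authors deposited, whole numbers per gene, were treated as rounded estimated counts. Versions, annotation, strand setting and gene filter were not given in the sources used here. Symbols, positions, lengths and GC content (over all transcripts of a gene) came from GENCODE M21 on GRCm38, which held 27053 of the 27343 identifiers.

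Groups were compared in R 4.3.3 with edgeR 4.0.16 (filterByExpr, TMM, quasi-likelihood test, two-sided), with calls at p under 0.05 after Benjamini-Hochberg adjustment. The SE is the fold change over the square root of F. The 95% intervals of the fold changes use a normal multiplier of this SE. They are narrower than t-based intervals would be with 5 libraries per group. DESeq2 1.42.0, limma-voom (limma 3.58.1), other size factors and filters, 2 GC settings (a per-library loess trend of span 0.3 removed through offsets, or the library's GC slope as a covariate) and leaving out each library were the alternatives. The fits that join GC removal with leaving out a library, and the fit without 2 libraries, were added after seeing the data. Coding sequences were aligned with MAFFT 7.526. Members, the pathway list, the 13 marker lists and the alternatives were chosen with earlier results of these data known. Named genes are the members, 7 fixed genes, up to 4 called genes with the smallest p in each pathway group and the 3 genes most like each member, of which 1 is not reported here. Rac1, Cdc42 and Rhoa were named after their values were seen. Same-group libraries differed by at least 13.5 in chi-square per degree of freedom, so none was entered more than once. In simulated counts for the 15938 genes, the fit recovered 63 of 100 genes set to a 1.5-fold change and 88 of 100 set to 2-fold, and called 10 of the 15738 left alone. These rates describe the simulated counts only. In the real libraries the genes called went from 3261 to 501 and 0 in the 2 GC settings.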

Additional observations from a re-analysis of the deposited data

How the results depend on the processing

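The number of genes called, 3261, was 2075 without a filter on low counts, 501 after removal of the GC trend and 0 when edgeR took the GC slope as covariate (1032 at p under 0.05 before adjustment). DESeq2 and limma-voom, run without that covariate, called 4480 and 3421. The edgeR count ranged from 10 to 5047 when 1 library was left out, at 1119, 1826, 27, 1127 and 5047 without Visudyne 1 to 5, and at 10, 1567 and 309 without vehicle 6, 7 and 9. With total counts alone 196 genes were higher and 3902 lower, against 1432 and 1829. The pathway genes called, 12, were 2 and 0 in the same GC settings, and ranged from 0 to 18 when 1 library was left out. With the GC slope as covariate Slit1 (0.027), Gpc1 (0.047) and Hs6st1 (0.023), all called in the reported fit, turned their sign, as did the uncalled Slit3 (0.31), Robo2 (-0.11), Srgap1 (0.05) and Robo4, which is listed at 0 in 3 libraries. The cause was not tested.

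Slit2 kept its direction under all 20 planned and 11 added settings. These fits reuse the libraries on which it was chosen and are no independent support. With the GC trend removed and 1 library left out Slit2 lay between 0.51 and 0.62, and Slit1 between -0.18 and -0.08. Slit2 passed the threshold in 9 of these 10 fits, not without Visudyne 3, and Slit1 in 0. No paired analysis was possible because the groups share no replicate numbers. Depth limits Robo3, Robo4 and other genes of few counts.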
